A study of Mus musculus with 6 samples.

Results

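Mitosis and chromosome segregation genes were examined on arrays of CD4-CD8- double-negative (DN) cells from fetal mouse thymus, with and without TCDD (2,3,7,8-tetrachlorodibenzo-p-dioxin). A list of 53 gene symbols was drawn up, from cyclins and condensins to spindle and cytokinesis proteins. A symbol was kept where the platform annotation gave a probe set with that symbol alone, and where a gene had several such probe sets the one with the highest mean over the arrays stood for it. This left 50 members of 12393 genes measured in all. Ccnb1, Espl1 and Cdca8 are not analysed here.

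The samples were 6, each on 1 Affymetrix array. Thymus lobes of C57BL/6 fetuses, taken at day 15 of gestation, were kept in organ culture for 6 days, and medium with 10 nM TCDD or with the solvent dioxane was renewed every 2 days. DN cells came from within the lobes (thymocytes, 1 array with TCDD and 1 with 0.1% dioxane) or from the buffer flushed off the lobes (emigrants, 2 arrays with TCDD and 2 with dioxane at a concentration the label does not give). All groups shared the strain and an age of 21 days post conception, were sorted with magnetic beads against CD4 and CD8 to a purity over 95%, and gave RNA from pooled cells. The labels number the TCDD emigrant arrays 1 and 2, and 1 of the dioxane emigrant arrays 2. The other dioxane emigrant array has no number in its label and is called number 1 here. These numbers are used as names. The labels do not state that equal numbers share a culture, nor that same-group arrays are independent cultures. A p-value here reflects the variation among 6 arrays, part or all of which may be technical.

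The list follows the machinery that a cell builds in G2 and mitosis. Cyclin-dependent kinase 1 with cyclins A and B drives entry, condensins compact the chromosomes, kinesins and microtubule-binding proteins shape the spindle, kinetochore proteins attach chromosomes to it, and the checkpoint holds the anaphase-promoting complex until all are attached. Transcripts of most of these genes peak in G2 and mitosis, so in bulk RNA they are read as a measure of dividing cells. DN thymocytes pass through phases of strong division before and after rearrangement of the T-cell receptor beta gene. TCDD activates the aryl hydrocarbon receptor (AHR), a transcription factor, and reduces thymus size in many species.

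The signals are log2 values from RMA, the authors' array summary, and a difference of 1 log2 unit is a 2-fold difference. Array medians lay between 4.84 and 4.88. Among 27 Bacillus subtilis control probe sets, a guide to signal without target, the brightest had a signal from 4.32 to 4.92 over the arrays. A signal below that cannot be told from background, so that differences resting on one are bounded. Of the members, 45 were at or above that control on every array. Cenpe was under it on all 6 arrays, Kif20a on 4, Cdc25c on 3, and Ncapg and Ndc80 on 1 each.

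The labelled cell type was checked against marker genes. Cd4 read 4.94 to 5.19 on the dioxane arrays and was above the highest control on all 6 arrays, and Cd8b1 (3.53 to 4.36 on the dioxane arrays) was below it on all 6. With dioxane, Cd8a read 4.70 on the thymocyte array, 4.69 on the emigrant array numbered 1 and 5.50 on that numbered 2, the last against a highest control of 4.45. T-lineage markers (13 of 15 measured) had a mean signal of 8.81 with dioxane and 7.95 with TCDD in thymocytes, 5.79 and 5.47 in the emigrant pair numbered 1, and 8.48 and 7.02 in the pair numbered 2. All 13 were above the controls on the dioxane arrays of thymocytes and of emigrants numbered 2, but 10 and 7 in emigrants numbered 1 with dioxane and TCDD. Neutrophil and granulocyte precursor markers (10 of 10 measured) averaged 5.15 and 5.12 in thymocytes, 8.97 and 10.21 in the emigrant pair numbered 1, and 5.95 and 6.92 in the pair numbered 2. Macrophage and dendritic markers (10 of 10) averaged 5.59 and 5.47, 8.85 and 9.32, and 7.18 and 8.82 in the same order. The emigrant arrays numbered 1 thus stood apart, with low T-lineage and high neutrophil signal for cells labelled as DN thymocytes. Macrophage and dendritic signal did not set them apart, since the TCDD emigrant array numbered 2 (8.82) read nearly as high as the dioxane array numbered 1 (8.85). The main results are given with and without the emigrant arrays numbered 1.

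Promoters of the members shared sequence features that the choice of members did not use. RefSeq promoter windows (GRCm38.p6, 250 bases before to 50 after the start) were on hand for 42 of the 50 members, in 44 windows. The CHR element TTTGAA, a site known from promoters of genes transcribed in G2 and mitosis, was searched on both strands, as was the CCAAT box, the site of the factor NF-Y. TTTGAA occurred in 72.7% of the member windows and in 17.9% of all 32851 windows (16% of those of protein-coding genes). CCAAT occurred in 75% and 37.4% (38.2%). The E2F sites TTTCCCGC or TTTGGCGC occurred in 6.82% and 1.56% (2.02%), and GCGTG, the core of the AHR binding site, in 59.1% and 32.4% (38.5%). Each motif was counted on its own, also where it shared letters with another, and a match describes letters, not binding. Both TTTGAA and CCAAT were present in 26 members. Neither was found in Birc5, Mad2l1, Ncaph, Nuf2, Nusap1, Pttg1 and Tacc3.

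The stretch from 100 bases before to 50 after the start is printed for 6 members, with TTTGAA and CCAAT, in either orientation, in capitals. Cdk1, Top2a, Ube2c and Cdc20 show both motifs close together, Ncapg2 shows TTTGAA alone 18 bases before the start, and Pttg1 shows neither. Lack of both motifs was shared by Nusap1 and Pttg1, the members with the most negative and the most positive fitted TCDD difference. Among the members lacking both, only Pttg1 had a positive fitted difference.
Cdk1 (chr10:69352863-69353012, minus strand): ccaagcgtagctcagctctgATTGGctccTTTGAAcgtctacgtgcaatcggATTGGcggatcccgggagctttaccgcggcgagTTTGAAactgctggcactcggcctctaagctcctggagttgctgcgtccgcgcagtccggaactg
Top2a (chr11:99024140-99024289, minus strand): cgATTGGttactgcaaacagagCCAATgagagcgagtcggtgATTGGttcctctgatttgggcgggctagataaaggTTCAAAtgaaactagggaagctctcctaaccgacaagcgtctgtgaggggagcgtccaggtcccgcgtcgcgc
Ube2c (chr2:164769829-164769978, plus strand): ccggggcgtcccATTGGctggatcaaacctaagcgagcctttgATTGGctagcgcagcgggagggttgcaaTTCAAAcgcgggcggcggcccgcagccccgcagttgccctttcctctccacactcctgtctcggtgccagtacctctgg
Cdc20 (chr4:118437294-118437443, minus strand): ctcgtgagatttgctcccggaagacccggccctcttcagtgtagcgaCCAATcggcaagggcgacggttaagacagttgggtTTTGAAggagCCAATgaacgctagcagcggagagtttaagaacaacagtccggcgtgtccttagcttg
Ncapg2 (chr12:116405336-116405485, plus strand): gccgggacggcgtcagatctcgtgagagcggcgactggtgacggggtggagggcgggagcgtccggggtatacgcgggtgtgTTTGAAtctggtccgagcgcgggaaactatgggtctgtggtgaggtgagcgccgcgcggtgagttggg
Pttg1 (chr11:43425932-43426081, minus strand): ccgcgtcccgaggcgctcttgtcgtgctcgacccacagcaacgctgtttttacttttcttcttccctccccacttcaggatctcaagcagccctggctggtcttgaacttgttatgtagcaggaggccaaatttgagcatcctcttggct

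The first question was how these genes differed between TCDD and dioxane in each pair of arrays of like source and number. Mitosis transcripts were lower with TCDD in thymocytes and in emigrants numbered 2, and were split in emigrants numbered 1. In thymocytes 44 of 50 members were lower, with a median of -0.47 log2 units against 0.01 over all genes. In emigrants numbered 2, 48 of 50 were lower, with a median of -0.96 against -0.02. In emigrants numbered 1, 28 of 50 were lower, with a median of -0.07 against -0.02. The share of all genes lower with TCDD was 48.5%, 54.7% and 51.8% in these pairs. With 1 array against 1 in each pair there is no test within it.

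Differences of at least 2-fold showed the same contrast between pairs. In emigrants numbered 2 they were found downward in 21 members, against 2.16% of all genes, and upward in none, against 3.43%. In thymocytes 10 members were at least 2-fold lower (2.79% of all genes) and none was as much higher (2.83%). In emigrants numbered 1 the counts were 4 lower (2.56%) and 2 higher (3.66%), Ncapg and Cdc20 being the higher members. All 3 pairs together had 26 members lower in each pair, where 17.4% of all genes were, and 1 member, Pttg1, higher in each pair, where 15.4% were. A further 18 members were lower in thymocytes and in emigrants numbered 2 but higher in emigrants numbered 1, among them Top2a, Cdk1, Bub1 and Cdc20.

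**Figure D1:**
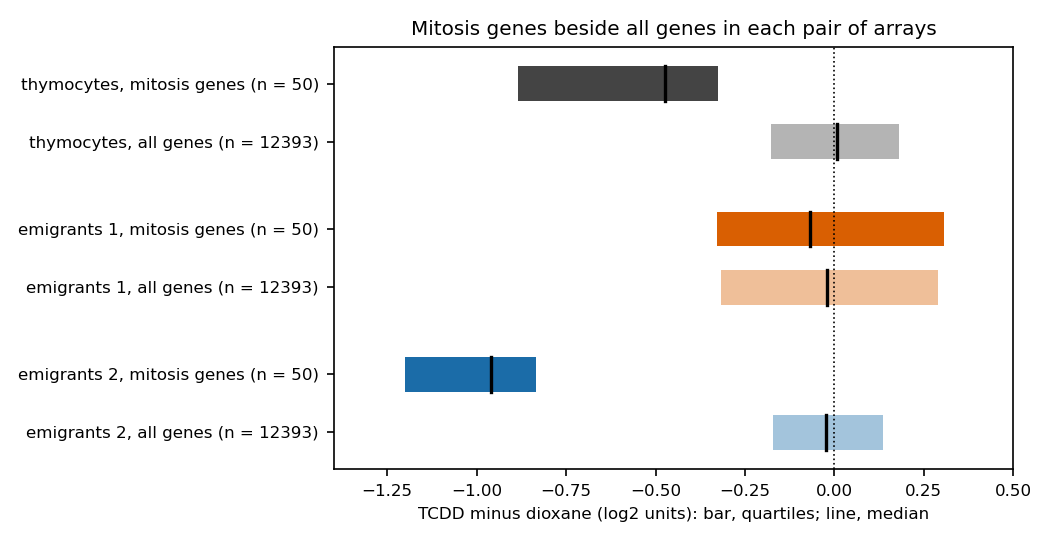
Quartiles (bars) and medians (lines) of the TCDD minus dioxane difference in log2 units, for the 50 mitosis genes and for all 12393 genes, in each of the 3 pairs of arrays. The mitosis medians lie at -0.47 in thymocytes, -0.07 in the emigrant pair numbered 1 and -0.96 in the pair numbered 2, while the medians of all genes lie within 0.03 of 0.

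**Figure D2:**
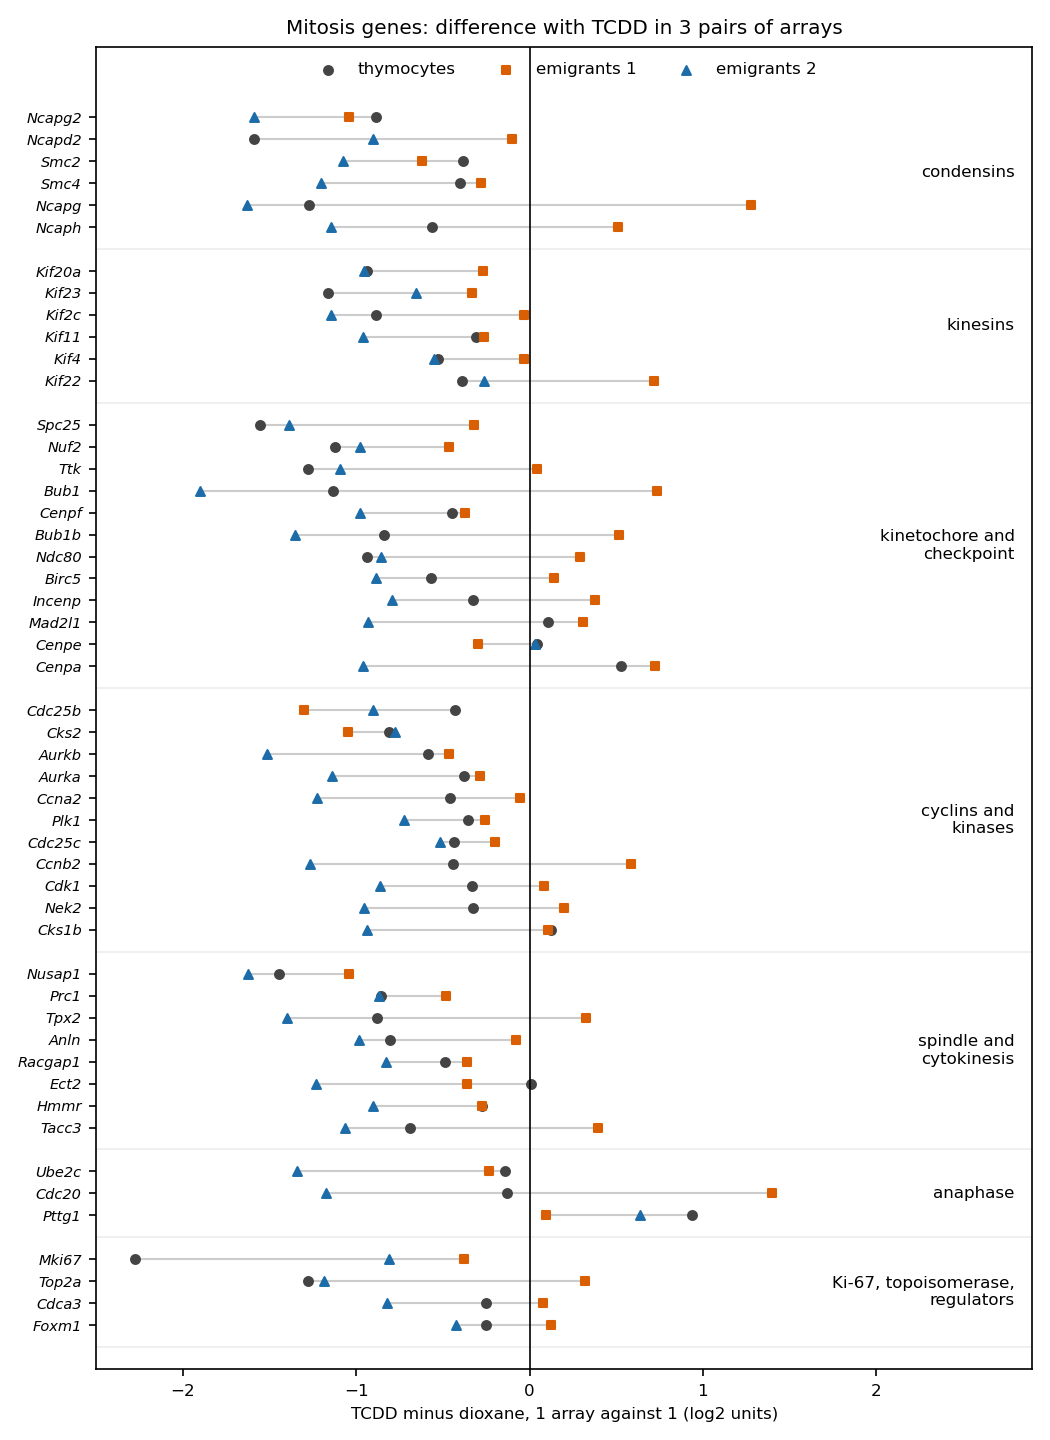
TCDD minus dioxane in log2 units (horizontal axis) for each of the 50 mitosis genes (rows, by subgroup), with 1 point for each pair of arrays. Blue triangles (emigrants numbered 2) lie left of 0 for 48 genes and black circles (thymocytes) for 44, while orange squares (emigrants numbered 1) lie on both sides.

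Across both sources, 3 TCDD arrays were compared with 3 dioxane arrays in limma, with cell source in the model. The members' median difference was -0.56 log2 units, with quartiles of -0.72 and -0.37, and 46 of 50 were lower, where 52.8% of all genes were. No member passed at an adjusted p under 0.05, and no gene of the 12393 did (0%; smallest limma adjusted p = 0.483 over all genes and 0.742 among members). At an unadjusted limma p under 0.05 there were 15 members (5.32% of all genes), all of them lower (2.63%) and none higher (2.69%). In 14 members every TCDD array read below every dioxane array, as in 4.61% of all genes. None had every TCDD array above every dioxane array (3.47% of all genes). These were 5 of the 6 kinesins, Smc4, Cenpf, Nuf2, Spc25, Cdc25c, Aurka, Aurkb, Nusap1 and Mki67, although the gap between the groups was as small as 0.005 for Nuf2 and as large as 0.90 for Nusap1.

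The size of the shift rested on the emigrant arrays numbered 2. Without both of them the median was -0.28, with 41 of 50 members lower, and without both numbered 1 it was -0.78, with 48 lower. The unadjusted count was 10 members (6.29% of all genes) and 39 (16.7%) in these fits. It was 6 without either thymocyte array (2.06%), 6 without the dioxane emigrant array numbered 2 (5.51%) and 10 without the TCDD array of that number (3.98%). It was 24 without the dioxane emigrant array numbered 1 (7.63%) and 22 without the TCDD array of that number (7.02%). No member passed in any of them. In emigrants alone (2 arrays against 2) the median was -0.51 with 47 of 50 lower, where 53.5% of all genes were, and no gene passed (0%; smallest limma adjusted p = 1.00). There 6 members had an unadjusted p under 0.05 (2.06% of all genes), all of them lower (0.815%) and none higher (1.24%). Without the dioxane array numbered 2 the emigrant median was -0.27, and without the TCDD array numbered 2 it was -0.23, with 3 members at that p in each case (4.8% and 2.02% of all genes). Without the dioxane or the TCDD array numbered 1 there were 11 (3.18%) and 12 (2.85%).

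Measures of RNA quality and of the makeup of the samples also differed between TCDD and dioxane. The 3' minus 5' signal of actin, which grows as RNA is shortened, was higher with TCDD in each pair, at 4.15 against 3.48, 3.77 against 3.06 and 3.36 against 3.01 in thymocytes, emigrants numbered 1 and emigrants numbered 2. That of Gapdh was lower with TCDD in thymocytes (5.86 against 6.10) and higher in the emigrant pairs (5.60 against 4.75, and 4.75 against 4.69). The mean of the T-lineage markers was lower with TCDD in each pair, with 11, 8 and 10 of 13 genes lower. In emigrants numbered 2 Rag1 (-6.38) and Dntt (-6.36), which act in receptor gene rearrangement, differed most, while Cd3e, a subunit of the T-cell receptor complex, was higher (0.32). With TCDD Rag1 read 3.61 there, under the control level of that array (4.34), so its difference is bounded by background. Neutrophil markers were higher in 4, 9 and 7 of 10 in the 3 pairs, and macrophage markers in 3, 7 and 10 of 10. Markers of NK and innate lymphoid cells were higher in 5, 4 and 2 of 7, with medians of 0.95, 0.05 and -0.28. Fibroblast and endothelial markers were higher in 3, 5 and 8 of 8, and their mean in emigrants numbered 2 was 4.54 with dioxane and 6.25 with TCDD, with Col3a1, a fibrillar collagen, higher by 4.49. The endothelial markers Pecam1 and Cdh5 were under the control level on all 6 arrays. In emigrants numbered 2 they differed by only 0.05 and 0.17, and the endothelial marker Kdr by 0.31. The part of all these measures in the mitosis differences was not tested. In bulk RNA, fewer cells of a type and less RNA per cell cannot be told apart.

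Condensins, the ring complexes that compact mitotic chromosomes, were lower with TCDD in 6 of 6 members in thymocytes (median -0.72), in 6 of 6 in emigrants numbered 2 (-1.18) and in 4 of 6 in emigrants numbered 1 (-0.19). For Ncapg2, a subunit of condensin II, the dioxane and TCDD signals were 7.55 and 6.66 in thymocytes, 8.70 and 7.66 in the emigrant pair numbered 1, and 9.05 and 7.47 in the pair numbered 2. It was lower with TCDD in each pair, by 0.88 to 1.59, but the groups overlapped, since the thymocyte dioxane value lay below the TCDD value of emigrants numbered 1. The fitted difference was -1.17 ± 0.19 (SE, n = 3 per group), or 2.25-fold, with an unadjusted limma p of 0.00117 and an adjusted p of 0.742.

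Ncapd2, the condensin I subunit that binds chromatin, measured 7.10 and 5.50 in thymocytes, 5.75 and 5.65 in the emigrant pair numbered 1, and 6.77 and 5.87 in the pair numbered 2. The dioxane value of emigrants numbered 1 lay within the TCDD range. Smc2, one of the 2 ATPase arms shared by both condensins, measured 7.71 and 7.33, 8.65 and 8.03, and 8.61 and 7.53 in the same order, and its partner Smc4 10.84 and 10.44, 10.80 and 10.52, and 11.15 and 9.95. On these probe sets the arms were lower in each pair, by 0.28 to 1.20 log2 units. A dimmer Smc4 probe set (mean 8.45) differed by -0.31, 0.08 and -0.33 in the 3 pairs. The dimmest (mean 3.37, under the control level of every array) differed by -0.43, -0.20 and -0.73. Ncaph, the condensin I kleisin that closes the ring, measured 7.52 and 6.95, 7.07 and 7.58, and 8.03 and 6.88. It was higher with TCDD only in emigrants numbered 1, as was Ncapg, another condensin I subunit, whose dioxane value there (3.78) was under the control level. The dimmer probe set of Ncapg was lower with TCDD in that pair (-0.31).

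Kinesins, the motors that build and split the spindle, held the most members with separated groups. All 6 were lower in thymocytes (median -0.71) and in emigrants numbered 2 (-0.81), and 5 of 6 in emigrants numbered 1 (-0.15). Kif23, a motor of the cytokinetic midzone, measured 6.46 with dioxane and 5.30 with TCDD in thymocytes, 5.89 and 5.56 in the emigrant pair numbered 1, and 6.38 and 5.73 in the pair numbered 2. Its groups did not overlap, and the fitted difference was -0.72 ± 0.23, or -0.34 with the mean of its probe sets. The dimmer probe sets of Kif23 had mean signals of 3.71 and 2.98, under the control level of every array. Kif2c, which depolymerises microtubules at centromeres, measured 8.07 and 7.19, 7.27 and 7.24, and 7.27 and 6.13 in that order. In emigrants numbered 1 its pair differed by only 0.03.

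Kif20a, a midzone motor, measured 4.73 and 3.79, 4.23 and 3.96, and 4.88 and 3.92. With 4 of its values under the control level these differences are bounded by background. Kif22, a motor of the chromosome arms, measured 9.24 and 8.85, 8.94 and 9.66, and 9.29 and 9.03. It was higher by 0.72 in emigrants numbered 1 and lower in the other pairs, with a fitted difference of 0.02 ± 0.26. Without both arrays numbered 1 its difference was -0.33. Kif11, which pushes the spindle poles apart, and Kif4, which binds chromosome arms, had fitted differences of -0.51 ± 0.25 and -0.37 ± 0.18, with 0.07 and 0.03 between the groups. Another Kif11 probe set, nearly as bright (mean 6.36 against 6.68), differed by -1.30, -1.19 and -1.82 in the 3 pairs. The dimmest Kif11 probe set (mean 3.38, under the control level of every array) differed by -0.03, -0.40 and -0.07.

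Kinetochore and checkpoint genes numbered 12, with 9 lower in thymocytes (median -0.70), 11 in emigrants numbered 2 (-0.97) and 4 in emigrants numbered 1 (0.22). Spc25, Nuf2 and Ndc80 belong to the outer kinetochore complex that grips microtubules. Spc25 measured 9.29 and 7.73 in thymocytes, 8.21 and 7.89 in the emigrant pair numbered 1, and 8.93 and 7.54 in the pair numbered 2, with dioxane and TCDD. Nuf2 measured 6.94 and 5.82, 7.40 and 6.94, and 7.45 and 6.47. The groups did not overlap for either gene, and the fitted differences were -1.09 ± 0.28 and -0.86 ± 0.20. With the mean of its probe sets Spc25 stood at -0.67, its dimmer probe set being higher with TCDD in thymocytes (0.22). The dimmer probe set had a mean signal of 4.03, under the control level of every array. Ndc80, the partner of Nuf2, differed by -0.94, 0.29 and -0.85 in the 3 pairs, the TCDD value in emigrants numbered 1 (4.64) being under the control level of its array (4.92).

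The checkpoint genes Bub1, Bub1b, Ttk and Mad2l1 were all higher with TCDD in emigrants numbered 1 and lower in emigrants numbered 2. Bub1, which recruits checkpoint proteins to kinetochores, measured 7.39 and 6.26 in thymocytes, 6.16 and 6.90 in the emigrant pair numbered 1, and 8.09 and 6.19 in the pair numbered 2. It was the member with the most negative difference in emigrants numbered 2 (-1.90), and its dioxane value in emigrants numbered 1 was as low as its TCDD values elsewhere. The dimmer probe set of Bub1 was lower in each pair, by -0.44, -0.26 and -0.54. Bub1b (BubR1), an inhibitor of the anaphase-promoting complex, differed by -0.84, 0.52 and -1.35. Ttk (Mps1), the kinase that starts checkpoint signalling, measured 6.54 and 5.26, 5.66 and 5.70, and 6.16 and 5.06, with a fitted difference of -0.78 ± 0.29, or -1.19 without both arrays numbered 1. Mad2l1 (Mad2), which binds Cdc20, differed by 0.11, 0.31 and -0.93.

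Cenpa, the centromeric histone, measured 7.59 and 8.11, 7.84 and 8.56, and 8.15 and 7.19. It was higher with TCDD in thymocytes and in emigrants numbered 1, unlike most members, and its fitted difference of 0.10 ± 0.39 turned to -0.22 without both arrays numbered 1 and to -0.12 without either thymocyte array. Cenpf, a large kinetochore protein of G2 cells, was lower in each pair, by 0.45, 0.37 and 0.98. The passenger complex proteins Incenp and Birc5 (survivin) differed by -0.32, 0.38 and -0.80, and by -0.57, 0.14 and -0.89. Cenpe, a kinetochore motor, was under the control level throughout.

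Cyclins, kinases and their regulators numbered 11. With TCDD 10 were lower in thymocytes (median -0.43), all 11 in emigrants numbered 2 (-0.94) and 7 in emigrants numbered 1 (-0.20). Cdc25b, the phosphatase that first activates Cdk1, measured 8.60 and 8.17 in thymocytes, 8.06 and 6.76 in the emigrant pair numbered 1, and 8.41 and 7.50 in the pair numbered 2. Its difference was widest in emigrants numbered 1 (-1.30), the most negative of any member there. Cks2, a small subunit of the Cdk1 complex, measured 11.80 and 10.99, 11.84 and 10.79, and 10.55 and 9.78. It differed by -0.78 to -1.05 in the 3 pairs.

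Aurkb (Aurora B), the kinase that corrects faulty attachments, measured 7.92 and 7.33, 7.81 and 7.35, and 8.04 and 6.52. Its groups were 0.46 apart and its fitted difference was -0.86 ± 0.26, or -0.53 without both arrays numbered 2. Aurka (Aurora A), the centrosomal kinase, differed by -0.38, -0.29 and -1.14. Plk1 (polo-like kinase 1), which acts from entry to cytokinesis, measured 6.66 and 6.31, 7.33 and 7.07, and 6.82 and 6.09, and Cdk1 itself 8.98 and 8.65, 8.81 and 8.90, and 9.08 and 8.22. Plk1 was lower in each pair, and Cdk1 in all but emigrants numbered 1. The fitted differences were -0.45 ± 0.31 and -0.37 ± 0.23. Without the TCDD emigrant array numbered 2 they were -0.15 and -0.17, and without the TCDD emigrant array numbered 1, -0.71 and -0.56. Cdc25c, a sister phosphatase of Cdc25b, differed by -0.44, -0.20 and -0.52, with 3 values under the control level, and the centrosomal kinase Nek2 by -0.32, 0.20 and -0.96. Ccna2 (cyclin A2) differed by -0.46, -0.06 and -1.23, and Ccnb2 (cyclin B2) by -0.44, 0.59 and -1.27. Cks1b, the paralogue of Cks2, measured 11.04 and 11.16, 10.81 and 10.92, and 10.50 and 9.56. Only in emigrants numbered 2 was it lower, and its difference of -0.24 ± 0.39 turned to 0.12 without both arrays of that number and to 0.20 without the TCDD array of that number.

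Spindle and cytokinesis genes numbered 8, with 7 lower in thymocytes (median -0.75), all 8 in emigrants numbered 2 (-1.02) and 6 in emigrants numbered 1 (-0.32). Nusap1, which bundles spindle microtubules around chromosomes, had the most negative fitted difference of all members with 1 probe set per gene. It measured 9.21 and 7.76 in thymocytes, 8.66 and 7.62 in the emigrant pair numbered 1, and 9.34 and 7.72 in the pair numbered 2. The 3 TCDD values lay between 7.62 and 7.76, the highest 0.90 below the lowest dioxane value. The difference was -1.37 ± 0.22 (SE, n = 3 per group), or 2.58-fold, with an unadjusted limma p of 0.00107 and an adjusted p of 0.742. With the mean of its probe sets it stood at -0.75, less negative than several members, among them Ncapg2, Mki67, Cks2, Cdc25b and Aurkb. Its dimmer probe set differed by -0.14, 0.16 and -0.41 in the 3 pairs. That probe set had a mean signal of 4.15, under the control level of every array (4.32 to 4.92). The mean of the probe sets is therefore bounded by background.

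Prc1, the crosslinker of midzone microtubules, measured 8.07 and 7.21, 8.49 and 8.00, and 7.73 and 6.87. It was lower in each pair although its groups overlapped. Tpx2, the activator of Aurora A, measured 6.20 and 5.32, 5.44 and 5.77, and 7.06 and 5.66. Tacc3, which steadies spindle fibres, measured 7.51 and 6.82, 6.60 and 7.00, and 7.56 and 6.50. On these probe sets both were higher with TCDD in emigrants numbered 1 alone. In that pair the dimmer probe set of Tpx2 differed by -0.03, and the dimmer probe sets of Tacc3 by 0.45 and -0.09. Anln (anillin) and Racgap1, which organise the cleavage furrow, differed by -0.80, -0.08 and -0.98, and by -0.49, -0.36 and -0.83. Hmmr, a spindle pole protein and hyaluronan receptor, differed by -0.27, -0.27 and -0.90. Ect2, the exchange factor that triggers the furrow, differed by 0.01 in thymocytes, -0.36 in the emigrant pair numbered 1 and -1.24 in the pair numbered 2.

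The anaphase group showed no common direction. Ube2c, the ubiquitin-conjugating enzyme of the anaphase-promoting complex, measured 7.46 and 7.32 in thymocytes, 7.24 and 7.01 in the emigrant pair numbered 1, and 7.57 and 6.22 in the pair numbered 2. Cdc20, the activator of that complex, measured 8.13 and 7.99, 7.22 and 8.62, and 8.46 and 7.29. It was the member most raised in emigrants numbered 1, at 1.40, and its fitted difference of 0.03 ± 0.47 was -0.65 without both arrays of that number. Its other probe sets differed by 0.99 and 0.32 in that pair. Pttg1 (securin), the inhibitor of the protease separase, measured 9.90 and 10.84, 10.88 and 10.98, and 9.73 and 10.36. It was the one member above dioxane in each pair, with a fitted difference of 0.56 ± 0.37 and an adjusted limma p of 0.999. It was 0.27 with the mean of its probe sets, 0.28 without the dioxane emigrant array numbered 2, 0.36 without either thymocyte array and 0.94 without the dioxane emigrant array numbered 1. Of its other 2 probe sets, 1 was higher in each pair (0.23, 0.05 and 0.56) and 1 differed by 0.33, -0.55 and 0.10.

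Mki67 (Ki-67), the protein that coats mitotic chromosomes and marks cycling cells, measured 9.97 and 7.70 in thymocytes, 10.04 and 9.66 in the emigrant pair numbered 1, and 10.15 and 9.34 in the pair numbered 2. The dioxane arrays lay between 9.97 and 10.15, and the TCDD thymocyte array stood alone at the bottom. Its difference of -2.28 in thymocytes was the largest of any member in any pair. Top2a (topoisomerase II alpha), which untangles sister chromatids, measured 11.07 and 9.79, 9.72 and 10.04, and 10.76 and 9.58. It was the dioxane array of emigrants numbered 1 that broke the pattern, reading as low as the TCDD arrays. Foxm1, a transcription factor of G2 and mitosis genes, measured 6.19 and 5.94, 5.67 and 5.79, and 6.20 and 5.78. Cdca3, a factor needed for entry into mitosis, measured 6.06 and 5.81, 5.74 and 5.82, and 6.37 and 5.54. The fitted differences of Foxm1 and Cdca3 were -0.18 ± 0.19 and -0.33 ± 0.22. Without the dioxane emigrant array numbered 2 they were -0.04 and -0.14, and without that numbered 1, -0.35 and -0.50.

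**Figure D3:**
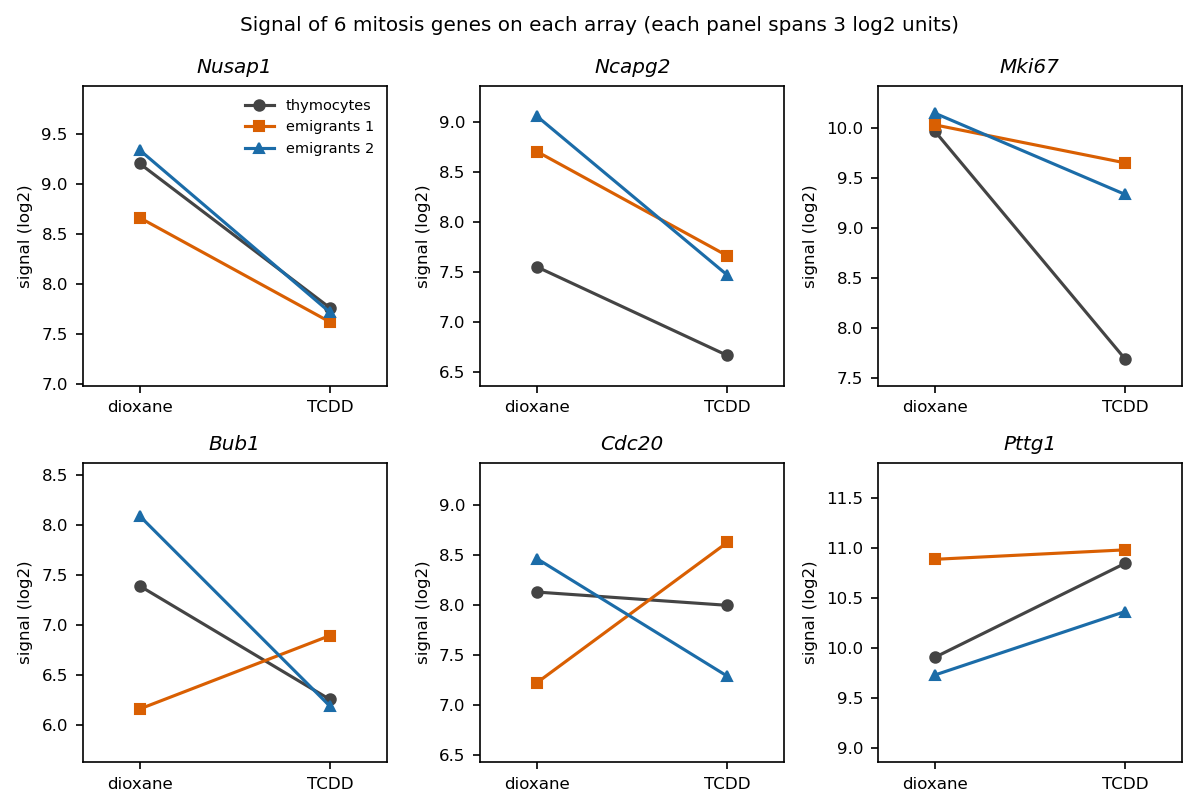
Signal in log2 units (vertical axis, 3 units in every panel) with dioxane and with TCDD for 6 mitosis genes, each line joining the 2 arrays of a pair. Nusap1 and Ncapg2 slope down in each pair, Mki67 most steeply in thymocytes (-2.28), Bub1 and Cdc20 slope up in emigrants numbered 1 alone, and Pttg1 slopes up in each pair.

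Both arrays of emigrants numbered 1 differed from those numbered 2. Among dioxane arrays, 39 of 50 members read lower in emigrants numbered 1 than numbered 2, with a median of -0.35 against 0.04 over all genes, where 46.2% of all genes did. At least 2-fold lower were 9 (7.83%) and as much higher 2 (4.71%). Among TCDD arrays 9 read lower in emigrants numbered 1 (47.2% of all genes), with a median of 0.50 against 0.03. Here 10 were at least 2-fold higher (3.81%) and none as much lower (5.87%). So the dioxane array numbered 1 read low and its TCDD partner high relative to the arrays numbered 2. As a median deviation from each gene's own mean, the members stood at 0.31 and -0.24 with dioxane and TCDD in thymocytes, 0.02 and -0.05 in the emigrant pair numbered 1 and 0.49 and -0.48 in the pair numbered 2. The dioxane array numbered 2 was the highest array for 24 members, and the TCDD array numbered 2 the lowest for 27.

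**Figure D4:**
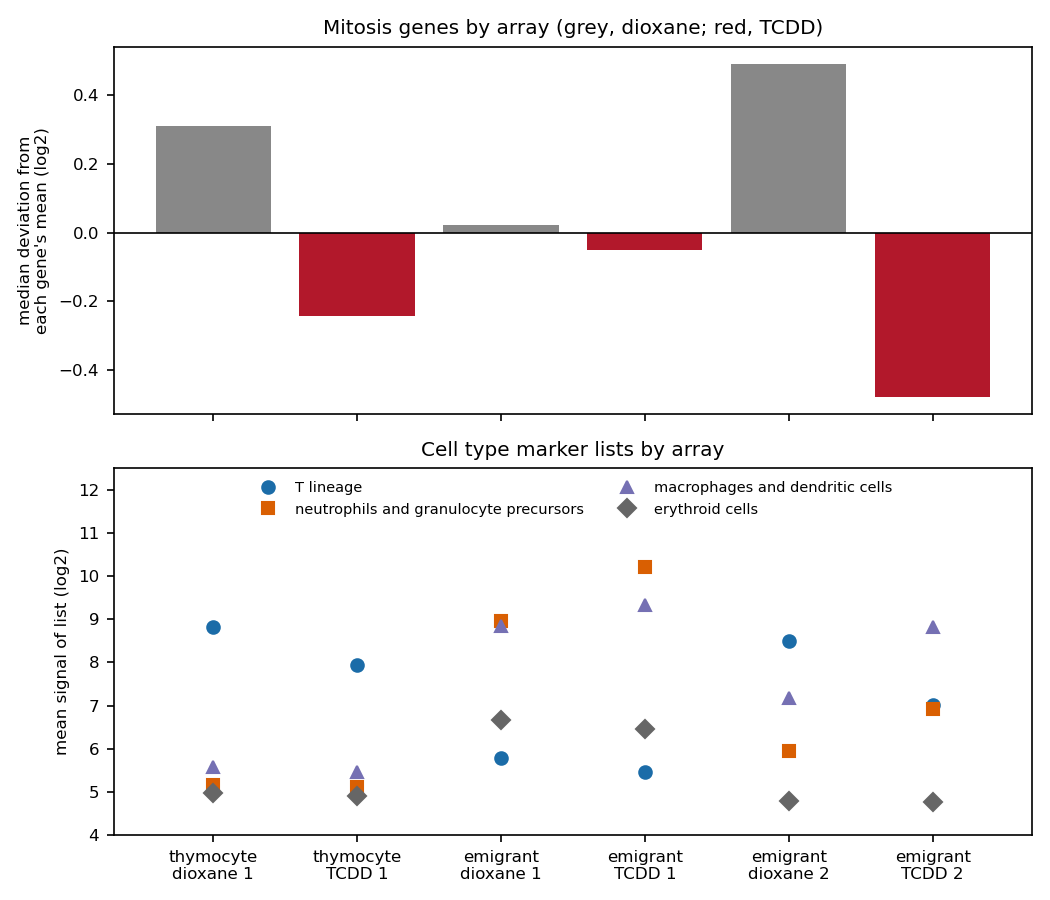
Upper panel, median deviation of the 50 mitosis genes from their own means on each array, in log2 units; lower panel, mean log2 signal of 4 cell type marker lists on the same arrays. The mitosis bars are smallest on the emigrant arrays numbered 1 (0.02 and -0.05), where neutrophil markers average 8.97 and 10.21 and T-lineage markers 5.79 and 5.47.

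Members followed one another over the 6 arrays to different degrees. The correlation of a member with the median of the others had a median of 0.70, and exceeded 0.8 in 17 members. It was -0.64 for Pttg1 and -0.07 for Cenpe. These are descriptions over 6 arrays that share treatment, source and sample makeup.

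Emigrants and thymocytes were then compared, with treatment in the model (4 arrays against 2). The members as a group stood at a median of -0.06, against -0.04 over all genes, with 29 of 50 lower in emigrants, where 56% of all genes were. No gene passed in limma (0%; smallest adjusted p = 0.165 over all genes and 0.325 among members). With an unadjusted limma p under 0.05 were 3 members, or 6%, a share below the 7.1% of all genes. All 3 were higher in emigrants (3.2% of all genes) and none was lower (3.9%). Ncapg2 was higher by 1.12 ± 0.20, Nuf2 by 0.68 ± 0.21 and Smc2 by 0.68 ± 0.22 (log2, SE). Ncapg2 read 8.70 and 9.05 on the dioxane emigrant arrays against 7.55 in thymocytes, and 7.66 and 7.47 against 6.66 with TCDD, so all emigrant values lay above the thymocyte value of their treatment. Without both emigrant arrays numbered 1 these differences were 1.16, 0.58 and 0.55. There 12 members had an unadjusted limma p under 0.05 (20.7% of all genes), 7 of them higher and 5 lower (8.99% of all genes lower). Without both arrays numbered 2 there were 7 (14.6%). With 1 emigrant array left out there were 3 to 6 members (6.16% to 8.27% of all genes). No member passed in any of these fits, the smallest member limma adjusted p being 0.0997.

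The members' values differed by treatment and array number. With dioxane the members' median was -0.31 for emigrants numbered 1 and 0.11 for emigrants numbered 2, both against the same thymocyte array. With TCDD it was 0.18 and -0.20, again against a shared array. Over all genes these medians were 0.00, -0.06, -0.04 and -0.08. Lower in emigrants were 35, 18, 11 and 34 members in this order, where 49.8%, 58.5%, 53.7% and 61.1% of all genes were.

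Whether TCDD differed in its effect between sources was tested as an interaction. The members' median difference of effects was 0.10, against -0.02 over all genes, with 23 below 0 (52.4% of all genes), and no gene passed (0%; smallest limma adjusted p = 1.00). Mki67 alone among the members had an unadjusted limma p under 0.05 (0.783% of all genes), on the higher side (0.452%; 0.331% on the lower). Its TCDD effect was 1.68 ± 0.43 less negative in emigrants than in thymocytes.

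Other genes of cell division were listed beside the members. Cohesin genes, which hold sister chromatids together, were lower in the comparison over both sources in 9 of 10 measured, with a median of -0.31, from Sgo1 (shugoshin) at -0.81 ± 0.22 to Esco1 at 0.40 ± 0.28. Further kinetochore and checkpoint genes were lower in 18 of 19 (median -0.27), with Cenpk lowest at -1.15 ± 0.37. Other mitotic kinases and regulators were lower in 9 of 11 (-0.25), with Cdc25a, a phosphatase of cell cycle entry, at -1.09 ± 0.32, although its probe sets differed in sign. Further spindle and cytokinesis genes were lower in 11 of 12 (-0.48), with Tubb5, a beta tubulin, at -0.65 ± 0.41. The anaphase-promoting complex, whose subunits are made through much of the cycle, was lower in 9 of 12 with a smaller median (-0.17), and Anapc13 stood highest at 0.46 ± 0.24. Regulators of the mitotic programme were lower in 9 of 10 (-0.21), from E2f8 at -0.76 ± 0.54 to Rbl2 at 0.42 ± 1.00. The 2 further kinesins measured, Kif18a and Kifc1, stood at -0.30 ± 0.20 and -0.27 ± 0.21, Kifc1 under the control level on all 6 arrays, and the further condensin subunit Ncaph2 at -0.13 ± 0.15.

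DNA replication genes, which are transcribed earlier in the cycle, were lower in 22 of 22 with a median of -0.62, and Gins1, a subunit of the replicative helicase, stood lowest at -1.80 ± 0.45. Their medians were -0.84 in thymocytes, 0.10 in the emigrant pair numbered 1 and -1.03 in the pair numbered 2. No gene of these lists passed over all genes, and 52.8% of all genes were lower in the same comparison. At an unadjusted limma p under 0.05 and lower were 2 cohesin, 3 kinetochore, 3 kinase, 1 anaphase-promoting complex, 2 spindle and 2 replication genes, where 2.63% of all genes were, with none on the higher side (2.69%).

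The 30 members with TTTGAA in their promoter had medians of -0.47, -0.09 and -0.97 in thymocytes, emigrants numbered 1 and emigrants numbered 2, and the 12 without it -0.57, 0.12 and -0.94. All 30 were lower with TCDD in emigrants numbered 2, as were 10 of the 12, Pttg1 and Cenpe being the others.

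Several probe sets were on hand for 26 members, and those of Kif22, Cdc20 and Pttg1 (3 members) differed in sign when averaged over the pairs. With the mean of all probe sets, 48 of 50 members were lower in the comparison over both sources (median -0.51). Probe sets that Affymetrix marks as likely to bind related transcripts (suffix x or s) stood for 9 members, those 3 among them. Of the other 41 members, 40 were lower, with a median of -0.57.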

How the data were processed

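Expression was measured on 1 Affymetrix array for each of 6 samples. The deposited values are log2 RMA summaries (background-corrected and normalised across arrays), per the submitters' processing notes and the series design text, which names the Bioconductor affy package. Software versions: not given in the sources used here. The number of arrays limits the precision. Of 22690 probe sets, 64 controls were left out, as were 691 assigned to several genes and 1555 assigned to none. The other 20380 gave 12393 genes, each by its probe set of highest mean, with symbols updated through RefSeq gene IDs.

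Linear models were fitted to all genes with limma 3.58.1 in R 4.3.3 (lmFit, eBayes), with Benjamini-Hochberg adjustment over all genes and calls at an adjusted p under 0.05. Residual degrees of freedom were 3 (both sources), 2 (emigrants), 3 (source) and 2 (interaction), where lone thymocyte arrays are assumed to vary like the others. The code was tested on simulated data. Members and lists were chosen with earlier results of these data known, so lists carry no p. Named with every array's value were, per subgroup, the 3 members most negative and the 1 most positive over both sources, and Mki67, Top2a, Cdk1, Plk1 and Foxm1. Smc4, Bub1, and the pair differences of other members were added after their values were seen. Alternatives were normalisation, filter, probe set rule, variance prior, threshold, block and omitted arrays.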

Additional observations from a re-analysis of the deposited data

Results flagged for a closer look

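Ect2, the exchange factor of the cleavage furrow, was lower with TCDD in both emigrant pairs (-0.36 and -1.24 log2 units) and marginally higher in the thymocyte pair (0.01). The emigrant effect minus the thymocyte effect was -0.81 ± 0.68 (SE) and did not pass in limma (adjusted p = 1.00), and the thymocyte value rests on 1 array against 1.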

How the results depend on the processing

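No mitosis gene passed in any of the 4 comparisons under any alternative run. The median over both sources stayed between -0.51 and -0.57 with cyclic loess, median centring, only genes at or above the median level or the mean of all probe sets. With 1 array left out it ranged from -0.71 to -0.39 over both sources (43 to 48 members lower), from -0.75 to -0.23 in emigrants (35 to 48 lower) and from -0.16 to 0.01 between sources. With the mean of all probe sets the small differences of Kif22 and Cdc20 turned to -0.22 and -0.079. The dimmer probe sets of Kif22 had mean signals of 4.38 and 3.65, near or under the control level. Without both emigrant arrays numbered 1, Kif22, Cenpa and Cdc20 stood at -0.33, -0.22 and -0.65, and without both numbered 2, Cks1b stood at 0.12. With 1 array left out, Kif22 ranged from -0.22 to 0.23, Cenpa from -0.23 to 0.55, Cdc20 from -0.37 to 0.39 and Cks1b from -0.57 to 0.20. With 1 array left out, 19 of 29 members named with every array's value moved by over 1.5 times or turned, and with the mean of all probe sets 11 did. The label number does not state a pairing, and over genes the deviations of same-numbered emigrant arrays correlated at 0.56. With the number as a replicate block no gene was called for TCDD, over both sources (25 members and 10.8% of all genes at an unadjusted limma p under 0.05, in place of 15 and 5.32%) or in emigrants. Between sources the block, with the unnumbered thymocyte arrays taken as number 1, gave 160 called genes in place of 0, none a mitosis gene. That fit and the one omitting both arrays numbered 2 estimate the same difference, emigrants numbered 1 minus thymocytes (Ncapg2 at 1.08 in each). They are therefore not separate checks. Omitting both arrays numbered 2 gave 225, and single omissions gave 0 to 7. The cause was not tested.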
